A study of Mus musculus with 6 samples.

Results

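DEAD box and DEAH box RNA helicases are the largest group of enzymes that use ATP to unwind or remodel RNA and RNA-protein complexes, and they take their names from a short amino acid motif in the ATP-binding core. Many of them sit in the nucleolus, where they open and rearrange the precursor ribosomal RNA while the ribosomal subunits are built. Others drive the spliceosome from one step to the next, export or silence mRNA, or bind viral RNA in the cytoplasm and start the interferon response. MYC is known to raise the production of ribosomes, and developing thymocytes divide fast and make many of them.

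The members were all genes whose annotation symbol is Ddx or Dhx followed by a number, except Ddx3y, with a probe set paired with that symbol alone. They came to 51 genes of 19938 that the annotation pairs in this way, 35 with Ddx symbols and 16 with Dhx symbols, and the brightest probe set stood for a gene with more than 1. Whole thymus RNA from mice 10 days old was measured on 3 RUNX2/MYC arrays, from mice carrying both CD2-Myc and CD2-Runx2 on a C57BL6/CBA background, and on 3 WT arrays, from C57/CBA mice without either transgene. Both transgenes stand under CD2 control elements, which act in T cells and their precursors and not in the stroma of the organ. Each array is labelled as a separate biological replicate. In whole thymus, fewer cells of a type and less RNA per cell cannot be told apart. The helicases of the nucleolus, of the spliceosome and of RNA sensing were each compared between the genotypes.

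The transgene separated the groups as labelled. Runx2 read 11.73, 11.78 and 11.96 on the RUNX2/MYC arrays and 7.94, 7.94 and 7.93 on the WT arrays, all on the log2 scale, which put the log2 fold change at 3.89 (standard error, SE, 0.093, adjusted p = 4.27e-05). The probe set of mouse Myc, which need not read the transgene, differed by -0.48 (SE 0.13, adjusted p = 0.119). Here and below a log2 fold change is the mean of the RUNX2/MYC arrays minus that of the WT arrays, SEs and p-values come from limma, and p-values are adjusted by Benjamini-Hochberg over all 35556 probe sets. A gene with an adjusted p under 0.05 is called, as higher or as lower by its sign. Over all probe sets the median log2 fold change was -0.051, and 42.3% of probe sets had a positive value. RUNX2/MYC replicate 1 was the lowest array of its group for 45 of the 51 members (88.2%, against 37.0% of all probe sets), and WT replicate 3 was the highest WT array for 36 members (70.6%, against 34.8%).

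Of the 51 helicases, Dhx33, Ddx51 and Ddx18 were called higher in RUNX2/MYC thymus and none was called lower by limma. The share called over all probe sets was 1.68% higher and 0.127% lower. Before adjustment, 22 helicases were higher at a p under 0.05, against a background of 12.0% of all probe sets, and 2 were lower, against 9.27%. Among the 6455 probe sets whose mean signal lay between the quartiles of the helicases (8.52 to 9.98), 4.20% were called higher, their median log2 fold change was 0.13 and 68.4% were positive. The median over the helicases was 0.24, with 44 positive and 7 negative values. It was 0.14 with centring on the 75th percentile (36 positive), 0.14 with cyclic loess (36 positive) and 0.16 with quantile normalization (38 positive). The RUNX2/MYC and WT arrays did not overlap for 28 helicases, 25 of them higher and 3 lower, where 14.3% of all probe sets were higher and 10.1% lower without overlap.

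**Figure D1:**
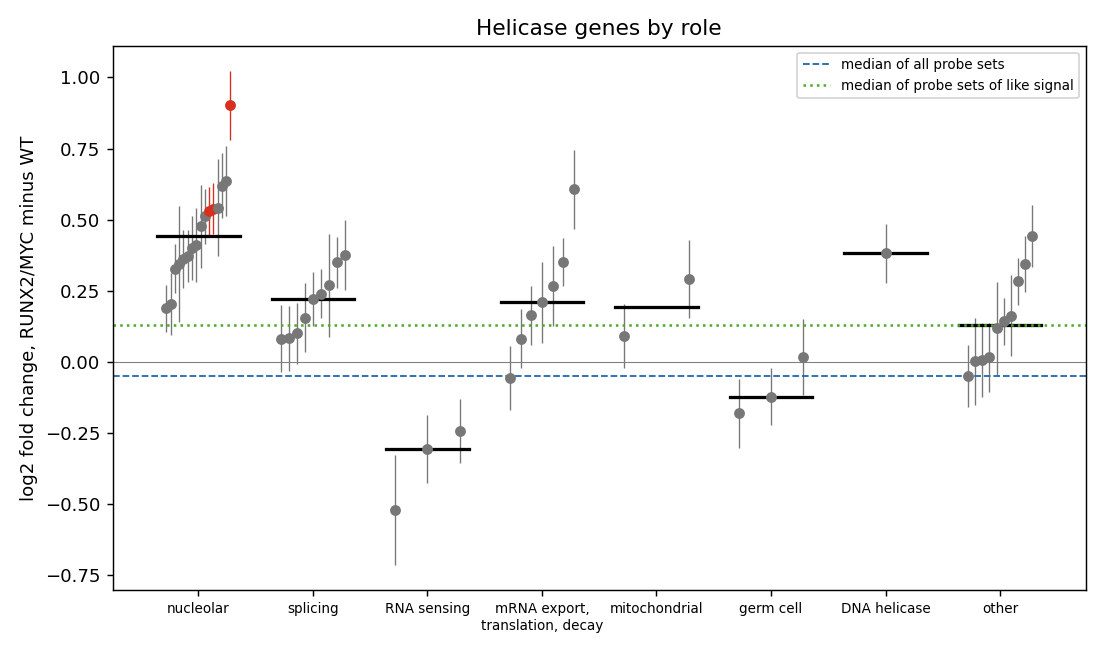
Log2 fold change (RUNX2/MYC minus WT) of the 51 helicases, 1 point for each gene, grouped by role, with SE bars, red points for genes called at an adjusted p under 0.05, black lines for role medians, and dashed and dotted lines for the medians of all probe sets and of those of like signal. The 16 nucleolar genes lie between 0.19 and 0.90, the 9 splicing genes between 0.08 and 0.38, and the 3 RNA-sensing genes between -0.52 and -0.24.

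The 250 bases before the RefSeq transcript start (mouse build GRCm38.p6) are shown for the 3 genes called higher and for Ddx60, the RNA-sensing helicase with the largest difference, so that the presence or absence of motifs of MYC, RUNX and interferon-responsive factors can be read in them. Windows from 250 bases before to 50 bases after a start were searched on both strands for CACGTG (the E-box that MYC and its partner MAX bind), for TGTGGT or TGCGGT (RUNX), and for GAAA, any pair of bases and GAAA again (the core of an interferon-stimulated response element). Capitals mark a match, which is a description of the sequence and not a binding site.
Dhx33 (chr11:71004433-71004682, minus strand): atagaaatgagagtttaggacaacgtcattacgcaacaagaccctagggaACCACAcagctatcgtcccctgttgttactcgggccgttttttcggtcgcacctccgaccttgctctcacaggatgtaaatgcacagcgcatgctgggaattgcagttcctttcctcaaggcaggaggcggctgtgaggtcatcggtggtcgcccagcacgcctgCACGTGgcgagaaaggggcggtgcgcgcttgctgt
Ddx51 (chr5:110653201-110653450, plus strand): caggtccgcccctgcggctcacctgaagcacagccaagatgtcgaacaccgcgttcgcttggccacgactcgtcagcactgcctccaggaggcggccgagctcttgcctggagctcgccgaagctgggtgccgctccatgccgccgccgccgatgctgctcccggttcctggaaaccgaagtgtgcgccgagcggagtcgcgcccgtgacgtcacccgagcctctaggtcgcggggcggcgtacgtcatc
Ddx18 (chr1:121567981-121568230, minus strand): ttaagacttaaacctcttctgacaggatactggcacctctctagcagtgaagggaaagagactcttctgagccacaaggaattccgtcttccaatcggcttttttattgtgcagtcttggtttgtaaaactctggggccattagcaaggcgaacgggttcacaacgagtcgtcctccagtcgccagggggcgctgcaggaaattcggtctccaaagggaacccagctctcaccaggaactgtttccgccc
Ddx60 (chr8:61927837-61928086, plus strand): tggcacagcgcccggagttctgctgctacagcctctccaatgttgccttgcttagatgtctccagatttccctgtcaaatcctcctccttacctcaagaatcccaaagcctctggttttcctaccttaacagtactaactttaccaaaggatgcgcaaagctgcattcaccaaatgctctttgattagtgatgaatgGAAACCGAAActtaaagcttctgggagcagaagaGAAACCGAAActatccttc

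Dhx33 held an E-box 35 bases before its start and a RUNX motif 200 bases before it, and the printed stretches of Ddx51 and Ddx18 held none of the motifs. Ddx60 held the interferon-type motif at 53 and at 19 bases before its start. A window was found for 45 of the 51 helicases. CACGTG occurred in 7 of those 45 (15.6%) and in 9.52% of the 15563 genes of the array with a window, and among the 16 nucleolar helicases in Dhx33 alone (6.25%). The RUNX motif was in 6 of the 45 (13.3%), Dhx33 and Ddx21 being the nucleolar ones, against 24.2% of array genes. The interferon-type motif was in 3 helicases (6.67%), against 3.89% of array genes. They were Ddx49, Ddx60 and Ddx58, the last with its match 3 bases after the start, so that both RNA-sensing helicases with a window held it. Of genes that act with the helicases, 11 of 48 ribosome assembly partners with a window held CACGTG (22.9%), and 8 of 24 RNA-sensing partners held the interferon-type motif (33.3%).

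The 16 nucleolar helicases held all 3 calls, and each had a positive log2 fold change, from 0.19 for Ddx54 to 0.90 for Dhx33, with a median of 0.44. In 14 of the 16 the lowest RUNX2/MYC array lay above the highest WT array, and 13 had an unadjusted p under 0.05. The mean over the 16 genes was 9.41, 9.59 and 9.57 on the RUNX2/MYC arrays and 8.97, 9.03 and 9.18 on the WT arrays, so the groups did not overlap. Over the 35 other helicases limma called none, while 9 were higher and 2 lower before adjustment (p under 0.05), and the median was 0.14. The difference between roles was not tested. The ANOVA of the methods with q values called 5 nucleolar and 2 other helicases higher, 7 of 51, and 3.41% of all probe sets.

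Dhx33, a DEAH box protein that promotes transcription of ribosomal DNA, had the largest difference of all 51 genes. Its log2 signal was 9.24, 9.40 and 9.32 on the RUNX2/MYC arrays and 8.21, 8.42 and 8.62 on the WT arrays. The gap between the groups exceeded the spread within each, and the log2 fold change was 0.90 (SE 0.12, adjusted p = 0.0236), a 1.87-fold difference. Ddx51, which releases the U8 small nucleolar RNA from the precursor of the large subunit, read 8.14, 8.26 and 8.29 against 7.70, 7.61 and 7.76. It rose by 0.54 (SE 0.089, adjusted p = 0.0397). Dhx33 was no longer called without RUNX2/MYC replicate 2 or 3 or WT replicate 1 or 2, where its adjusted p reached 0.138. Ddx51 and Ddx18 were called in only 1 of the 6 fits that left out an array, the fit without RUNX2/MYC replicate 1. Ddx51 was also not called with centring on the 75th percentile. The ANOVA with Benjamini-Hochberg adjustment called none of the helicases.

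Ddx18, a factor of large subunit assembly, read 10.89, 10.86 and 10.96 against 10.30, 10.43 and 10.39 on its brightest probe set, with a log2 fold change of 0.53 (SE 0.084, adjusted p = 0.0351). That probe set lies by its number among probe sets of another chromosome, with 17 of its 20 nearest annotated neighbours on it. The other Ddx18 probe set, with 19 of 20 neighbours on the gene's own chromosome, read 9.71, 9.64 and 9.94 against 9.38, 9.52 and 9.21. Its groups did not overlap either, but the log2 fold change of 0.40 (SE 0.12, adjusted p = 0.156) was not called, and with it 2 helicases were called higher in place of 3. The call of Ddx18 was also lost with centring on the 75th percentile, quantile normalization, cyclic loess and the mean over its probe sets.

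**Figure D2:**
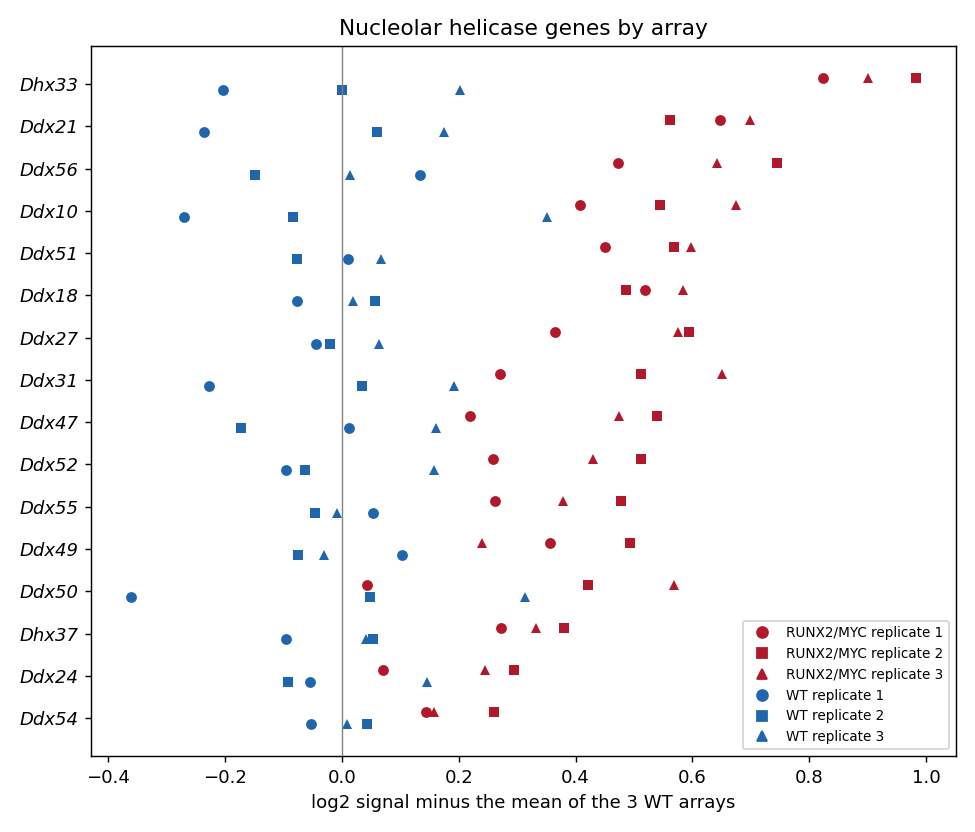
Log2 signal of the 16 nucleolar helicases on each of the 6 arrays, minus the mean of the 3 WT arrays of that gene, with red points for RUNX2/MYC, blue points for WT and the marker shape for the replicate number. RUNX2/MYC and WT points overlap for Ddx50 and Ddx24 and are apart for the other 14 genes.

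A further 4 nucleolar helicases had log2 fold changes above 0.5 without being called. Ddx21, which joins transcription by RNA polymerase I to the processing of its product, read 10.79, 10.70 and 10.84 against 9.90, 10.20 and 10.31, a difference of 0.64 (SE 0.12, adjusted p = 0.0583). Ddx56, a factor of late large subunit assembly, read 10.23, 10.50 and 10.40 against 9.89, 9.61 and 9.77, a difference of 0.62 (SE 0.11, adjusted p = 0.0519). Ddx27, which works with the PES1, BOP1 and WDR12 complex, read 9.43, 9.66 and 9.64 against 9.02, 9.05 and 9.13, a difference of 0.51 (SE 0.097, adjusted p = 0.0551). In each of the 3 every RUNX2/MYC array lay above every WT array. Ddx10, which acts on small nucleolar RNAs of the small subunit, read 9.60, 9.73 and 9.86 against 8.92, 9.11 and 9.54, so that WT replicate 3 came close to RUNX2/MYC replicate 1, with a difference of 0.54 (SE 0.17, adjusted p = 0.157).

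The other nucleolar helicases lay lower in the same range. Ddx31 (0.48), Ddx47 (0.41), Ddx52 (0.40), Ddx55 (0.37), Ddx49 (0.36) and Dhx37 (0.33) did not overlap between the groups, with adjusted p-values from 0.0992 for Ddx55 to 0.159 for Ddx47. Ddx47 and Ddx52 are counterparts of yeast factors that process the small subunit RNA, Dhx37 frees the U3 small nucleolar RNA from it, and Ddx55 acts on the large subunit. Ddx50, the close paralogue of Ddx21, differed by 0.34 (adjusted p = 0.341), and Ddx24, a large subunit factor, by 0.20 (adjusted p = 0.301). For both, WT replicate 3 lay above RUNX2/MYC replicate 1. Ddx54 had 0.19 (adjusted p = 0.249) on the probe set used and -0.27 (adjusted p = 0.218) on its second probe set, so the sign of this gene rested on the probe set.

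**Figure D3:**
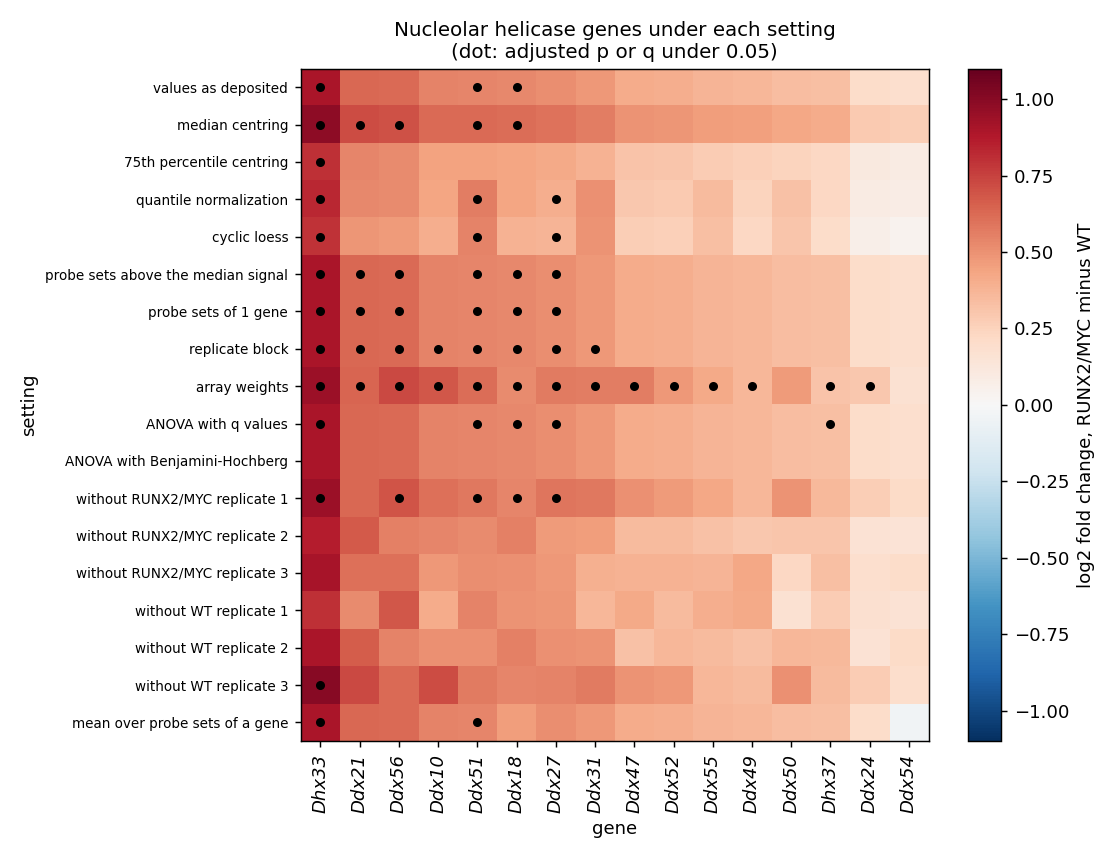
Log2 fold change (colour scale, RUNX2/MYC minus WT) of the 16 nucleolar helicases in columns, for the deposited values and each alternative in rows, with a dot where the adjusted p or q was under 0.05. All values are positive except that of Ddx54 averaged over its probe sets, and the dots depend on the row, with none in 5 of the 18 rows.

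Of the 60 measured genes of ribosome assembly that are not helicases, 34 were called higher and none lower, all 60 had positive log2 fold changes, and the median was 0.61. Rrp1b, a nucleolar protein of large subunit processing, had the largest called change, with 9.54, 9.42 and 9.65 against 8.34, 8.25 and 8.52 (log2 fold change 1.17, SE 0.11, adjusted p = 0.0140). The count depended on single arrays, with none called without RUNX2/MYC replicate 2 or 3 or WT replicate 1 or 2. Of the PES1 complex, Bop1 was higher by 0.67 (adjusted p = 0.0201), and Pes1 (0.57) and Wdr12 (0.60) had an adjusted p of 0.062 each. G-patch proteins switch on DEAH box helicases by binding them, and of the 16 measured Pinx1 was called higher. This nucleolar partner of DHX15 read 9.95, 10.03 and 9.93 against 9.31, 9.15 and 9.19 (log2 fold change 0.75, SE 0.088, adjusted p = 0.0167). Another nucleolar partner, Nkrf, had 0.58 (adjusted p = 0.0611), and Tfip11, which brings DHX15 to the spliceosome, had 0.14 (adjusted p = 0.358). The median over the 16 was 0.18.

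None of the 9 splicing helicases was called in either direction by limma, 3 were higher at an unadjusted p under 0.05, and the ANOVA with q values called none. All 9 had positive log2 fold changes, from 0.08 to 0.38 with a median of 0.22, and 4 did not overlap between the groups. Over all probe sets 12.0% were higher before adjustment and 14.3% were higher without overlap. Of the probe sets of like signal to the helicases, 68.4% were positive. With cyclic loess the median was 0.090, and with loess or quantile normalization 6 of the 9 were positive. The mean over the 9 genes was 9.92, 10.10 and 10.15 on the RUNX2/MYC arrays and 9.74, 9.83 and 9.97 on the WT arrays, so WT replicate 3 lay above RUNX2/MYC replicate 1. RUNX2/MYC replicate 1 was the lowest array of its group for all 9 genes.

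The 4 splicing helicases that were apart between the groups were Ddx46, Ddx23, Ddx39b and Dhx35. Ddx46, the counterpart of yeast Prp5 that helps the U2 particle onto the branch site, read 10.51, 10.60 and 10.76 against 10.09, 10.21 and 10.45 (log2 fold change 0.38, adjusted p = 0.169). Ddx23, which displaces the U1 particle, read 9.92, 10.03 and 10.07 against 9.77, 9.72 and 9.81 (0.24, adjusted p = 0.189). Ddx39b, which acts with U2AF and in mRNA export, read 11.89, 11.99 and 12.04 against 11.85, 11.65 and 11.75 (0.22, adjusted p = 0.237). These gaps were narrow, and for Ddx39b WT replicate 1 lay just under RUNX2/MYC replicate 1. Dhx35, found in catalytic spliceosomes, read 8.73, 8.90 and 8.90 against 8.45, 8.55 and 8.48 (0.35, adjusted p = 0.107). Ddx42, a partner of the SF3b complex, had 0.27 (adjusted p = 0.384) with overlap.

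The smallest values of the group were 0.15 for Dhx38, which remodels the spliceosome before exon ligation, 0.10 for Dhx16, which activates it, 0.083 for Dhx15, which takes it apart, and 0.082 for Dhx8, which lets the spliced mRNA go. Their 95% intervals all included 0, and that of Dhx15 ran from -0.19 to 0.35. With the arrays renormalized by quantiles or by cyclic loess the values of Dhx16, Dhx15 and Dhx8 turned negative, and centring on the 75th percentile turned the last pair. The other spliceosome proteins, outside the family, had a median of 0.27 over 48 genes, all positive, from 0.037 for Sf3b1 to 0.47 for Prpf39. None of them was called by limma, with 22 higher at an unadjusted p under 0.05 and 4 called by the ANOVA with q values.

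**Figure D4:**
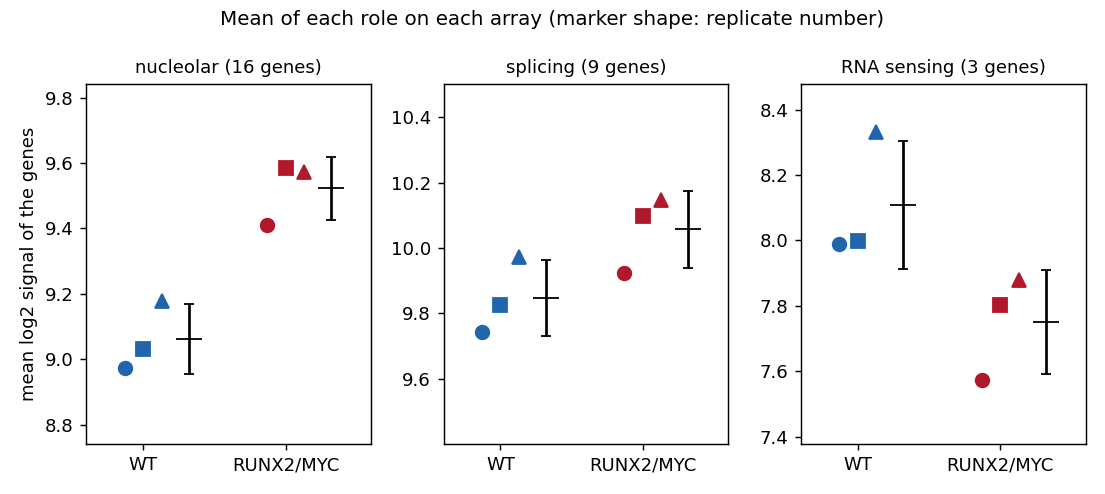
Mean log2 signal of the nucleolar, splicing and RNA-sensing helicases on each array, in red for RUNX2/MYC and blue for WT, with black bars for the mean and SD of the 3 arrays and a separate vertical range for each role. The nucleolar means are higher on the 3 RUNX2/MYC arrays, the splicing means overlap between the groups, and the RNA-sensing means are lower on the RUNX2/MYC arrays.

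The 3 helicases placed in the RNA-sensing role, Ddx58, Dhx58 and Ddx60, went the other way in value. None was called by limma, 2 were lower at an unadjusted p under 0.05, and the ANOVA with q values called none. Roles did not overlap and were set with earlier results of these data known. Members placed in other roles were not examined for a part in RNA sensing, so these values cover the 3 genes only. All 3 were lower on each RUNX2/MYC array than on any WT array, and their median log2 fold change was -0.31. Ddx58, which encodes RIG-I, the sensor of RNA ends of viral type, read 9.22, 9.47 and 9.46 against 9.60, 9.52 and 9.77. The groups came close at RUNX2/MYC replicate 2 and WT replicate 2, and the log2 fold change was -0.24 (SE 0.11, adjusted p = 0.260). Dhx58, which encodes LGP2, a regulator of the other sensors, read 7.16, 7.45 and 7.48 against 7.62, 7.59 and 7.79 (log2 fold change -0.31, SE 0.12, adjusted p = 0.212).

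Ddx60, an interferon-induced helicase described as a helper of RIG-I, had the largest difference of the 3 and is the gene printed above with a pair of interferon-type motifs. It read 6.34, 6.49 and 6.69 against 6.75, 6.89 and 7.44, where WT replicate 3 stood well above the other WT arrays. Its log2 fold change was -0.52 (SE 0.19, adjusted p = 0.203). Its mean over all 6 arrays, 6.77, stood at percentile 36.9 of all probe sets. The mean over the 3 genes was 7.57, 7.80 and 7.88 on the RUNX2/MYC arrays and 7.99, 8.00 and 8.33 on the WT arrays. These means did not overlap.

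**Figure D5:**
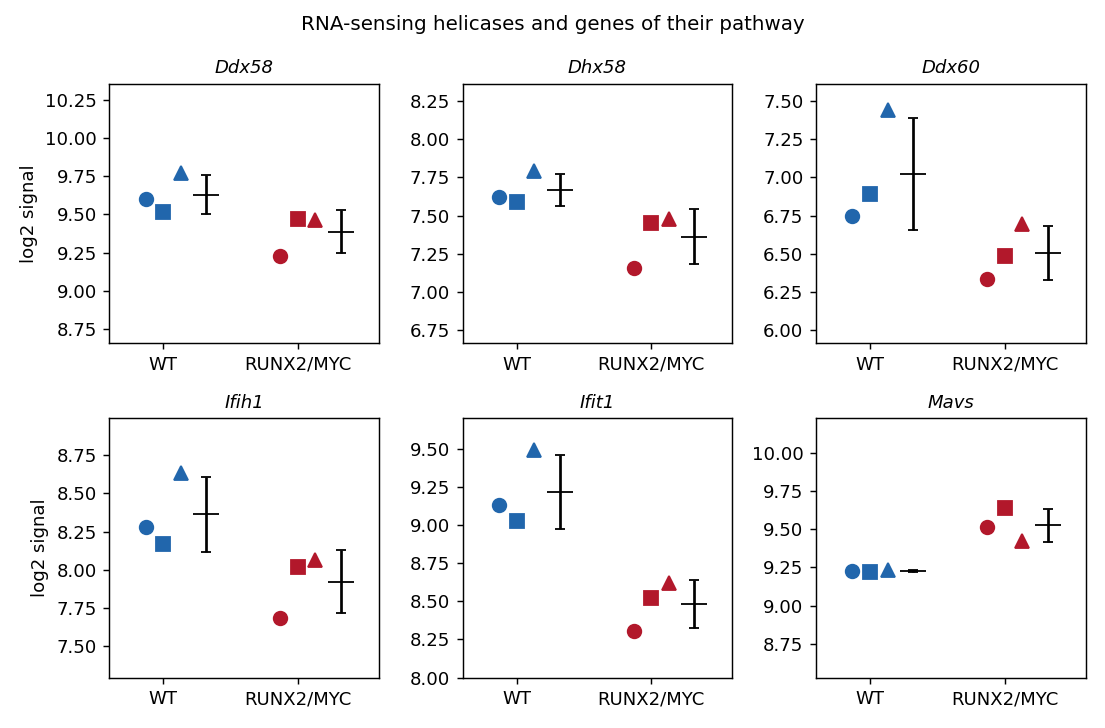
Log2 signal of the 3 RNA-sensing helicases and of Ifih1, Ifit1 and Mavs on each of the 6 arrays, in red for RUNX2/MYC and blue for WT, with black bars for the mean and SD of 3 arrays and a separate vertical range for each gene. Ddx58, Dhx58 and Ddx60 are lower on every RUNX2/MYC array than on any WT array, and none of them was called.

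The RNA-sensing and interferon-response genes that are not members were mixed. Of the 31 measured, 9 had positive and 22 negative log2 fold changes, the median was -0.19, and limma called none. Before adjustment (limma, p under 0.05) 4 were higher, against 12.0% of all probe sets, and 10 lower, against 9.27%. The ANOVA with q values called 2 lower, against 0.695% of all probe sets. Ifih1, which encodes the related sensor MDA5, read 7.69, 8.02 and 8.06 against 8.28, 8.17 and 8.63 (log2 fold change -0.44, adjusted p = 0.193). Mavs, the adaptor that RIG-I and MDA5 both signal through, had 0.30 (adjusted p = 0.147) and lay on the opposite side without overlap. Ifit1 (-0.74, adjusted p = 0.0623) and Oasl2 (-0.54, adjusted p = 0.0600), both interferon-induced, were also apart between the groups, and Rsad2, likewise interferon-induced, was apart on the opposite side (0.59, adjusted p = 0.208). These 3 were named after their values were seen.

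Among the other roles no helicase was called by limma, and the ANOVA with q values called 1 of the mRNA group and 1 of those without a set role. The 7 helicases of mRNA export, translation and decay had a median of 0.21. Dhx34, a factor of nonsense-mediated decay, was the largest of them and read 8.66, 9.07 and 8.73 against 8.32, 8.04 and 8.28. The groups were apart, with a log2 fold change of 0.61 (SE 0.14, adjusted p = 0.0836). Ddx41, read at 9.44, 9.76 and 9.55 against 9.16, 9.07 and 9.19, led the 10 genes without a set role (0.44, SE 0.11, adjusted p = 0.0979), which had a median of 0.13. Ddx11, a DNA helicase that carries the family name, had 0.38 (adjusted p = 0.121), and Dhx30 of the mitochondrial ribosome 0.29 (adjusted p = 0.265).

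The germ cell helicases Ddx4, Ddx25 and Ddx43 had log2 signals from 5.08 to 5.92 over all arrays, the groups overlapped for each, and the largest difference was -0.18 for Ddx4 (adjusted p = 0.381). Several helicases of general RNA metabolism, named after their values were seen, lay near 0. The log2 fold change was 0.0029 for Dhx9 (95% interval -0.36 to 0.36), 0.0074 for Ddx17 (-0.30 to 0.31), -0.049 for Ddx5 (-0.31 to 0.21) and -0.056 for Ddx6 (-0.32 to 0.21). Members of the wider family under other symbols, Eif4a3 of the exon junction complex (0.37, adjusted p = 0.150) the largest of the 6, were not called by limma or by the ANOVA with q values, with 1 on each side before adjustment (p under 0.05). Of 15 related RNA helicases from outside the family, 8 had positive and 7 negative log2 fold changes, with a median of 0.051. Only Supv3l1 of the mitochondrial RNA-degrading complex was called, higher by 0.55 (SE 0.096, adjusted p = 0.0446), where 1.68% of all probe sets were called higher. Before adjustment (limma, p under 0.05) 4 of the 15 were higher and 2 lower.

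Close paralogues were compared as the difference between the pair within each array. Ddx21 minus Ddx50 was 2.63, 2.17 and 2.16 on the RUNX2/MYC arrays and 2.15, 2.04 and 1.89 on the WT arrays, larger in RUNX2/MYC by 0.29 (exact permutation test, two-sided, p = 0.1, which is the smallest that 3 against 3 arrays allow, and 0.3 after adjustment over the 3 pairs). The difference between Ddx39a and Ddx39b shifted by 0.13 (exact permutation p = 0.2, adjusted 0.3), and that between Ddx5 and Ddx17 by -0.057 (exact permutation p = 0.5, adjusted 0.5). No pair could pass 0.05 in this design. The groups did not overlap for Ddx21 minus Ddx50, but only narrowly, with 2.16 on RUNX2/MYC replicate 3 against 2.15 on WT replicate 1. RUNX2/MYC replicate 1, at 2.63, stood well above the other arrays of its group.

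Markers of other cells and of division moved with the groups in places. The 12 markers of thymic epithelium all had negative log2 fold changes, 8 without overlap, and their mean ran from 9.26 to 9.38 on the RUNX2/MYC arrays and from 9.57 to 9.70 on the WT arrays. The 10 thymocyte markers had means of 11.32 to 11.66 and 11.66 to 11.76, but did not move alike. Cd4 (-0.74), Rag1 (-0.62), Rag2 (-0.55) and Dntt (-0.52) were lower without overlap, and Cd3d (0.32) was higher without overlap. Ptcra had -0.19 with overlap. Cd3e, Cd3g, Cd8a and Cd8b1 overlapped and lay from -0.025 for Cd3g to 0.10 for Cd8a. Over 11 proliferation genes the median log2 fold change was 0.068, and Mki67 had -0.12. None of these 3 lists held a gene called by limma. Before adjustment (p under 0.05), 6 epithelial markers were lower, 4 thymocyte markers were lower and 1 higher, and 2 proliferation genes were higher, and the ANOVA with q values called 3 epithelial markers lower. The mean of the 9 adipocyte markers was 8.37 on RUNX2/MYC replicate 2 and between 6.73 and 7.19 on the other arrays. The means of the B-cell, erythroid, myeloid and fibroblast markers overlapped between the groups, but single markers did not. Of 3 erythroid markers 2 were higher without overlap, and of 6 B-cell markers 1 was higher and 1 lower. Without overlap, 3 of 11 myeloid and 3 of 7 fibroblast markers were lower, and all 7 fibroblast values were negative. Over all probe sets 14.3% were higher and 10.1% lower without overlap. Limma called no marker of these lists, and the ANOVA with q values called 1 B-cell marker higher. Without RUNX2/MYC replicate 2 the median of the nucleolar helicases was 0.40, and none was called, where 3 of all 35556 probe sets were called higher. None was called without RUNX2/MYC replicate 3 or WT replicate 1 or 2 either. The part of the marker differences in the helicase values was not tested.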

How the data were processed

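Whole thymus RNA was hybridised to 6 Affymetrix arrays of 1 colour. The authors deposited log2 signals made by robust multi-array averaging (RMA), that is, background correction, normalization across arrays and a summary over the probes of a set. The submitters' processing notes give Affymetrix Expression Console 1.4, whereas the study's methods give Partek Genomics Suite and a correction for GC content. The deposited log2 values were used without further normalization. Genes were named from the platform annotation, which pairs 21789 of 35556 probe sets with 1 gene, 1621 with several and 12146 with none. Runx2 was named by the probe set number the study lists. RUNX2/MYC was compared with WT in limma 3.58.1 (R 4.3.3) with p-values adjusted over all probe sets by Benjamini-Hochberg and called at 0.05, and the code was tested on simulated data. The members, roles and lists were chosen with earlier results of these data known. Named were all nucleolar, splicing and RNA-sensing members, the member with the largest change in each other role, and, in each partner list, the called gene with the largest change and genes the helicases act with. Other genes were named after their values were seen. Levels were not compared between probe sets of different genes except as differences of paralogues within an array. Alternatives were 4 rescalings, 2 filters, the mean over probe sets, array weights, the methods' ANOVA with q values or Benjamini-Hochberg values, the replicate number as a block, and each array left out. Same-numbered arrays did not deviate together for every pair. The number of arrays limits the precision. Motif windows were searched in RefSeq sequence of GRCm38.p6.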

Additional observations from a re-analysis of the deposited data

How the results depend on the processing

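With 3 arrays in each group the calls rested on the processing and on single arrays. Against 3 helicases called higher, all nucleolar, the count was 5 with median centring (5 nucleolar, and 2.57% of all probe sets tested), 1 with centring on the 75th percentile (1 nucleolar, 0.588%), 8 over probe sets above the median signal (6 nucleolar, 7.01%), 8 over probe sets of 1 gene (6 nucleolar, 5.67%), 28 with array weights (14 nucleolar, 16.2%), 7 by ANOVA with q values (5 nucleolar, 3.41%) and 0 by ANOVA with Benjamini-Hochberg adjustment (0 nucleolar, 0.456%). It was 3 with quantile normalization (1.53%) and with cyclic loess (1.29%), where Ddx18 was lost and Ddx27 gained. Array weights, which gave RUNX2/MYC replicate 1 and WT replicate 3 the least weight (0.42 and 0.44), also called 5 splicing helicases higher and 1 helicase, Ddx4, lower, against 20.6% of probe sets lower. With each array left out in turn the count ran from 0 to 5, all nucleolar. It was 0 without RUNX2/MYC replicate 2 or 3 or WT replicate 1 or 2 (3 or 4 of all 35556 probe sets). It was 1 without WT replicate 3 (1.52% of all probe sets) and 5 without RUNX2/MYC replicate 1 (2.45%). The median of the splicing helicases fell from 0.22 to 0.090 with cyclic loess. The median over related RNA helicases outside the family turned from 0.051 to -0.062 with quantile normalization. With Ddx18 on the probe set of its own chromosome, an alternative chosen after seeing the data, 2 helicases were called. All 16 nucleolar log2 fold changes were positive under every alternative except the mean over probe sets, where Ddx54 was negative. All 3 RNA-sensing ones were negative under every alternative that tested them, and Ddx60 was not among the probe sets above the median signal. The median over all probe sets shifted by 0.084 with median centring and by -0.097 with 75th percentile centring. Centring moves every log2 fold change by the difference between the groups in the centred quantity. Why the groups differed in it was not tested.

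With the replicate number as a block (replicate block), 8 helicases were called higher, 8 of them nucleolar (4.65% of all probe sets), and 1 lower (2.15%), the RNA-sensing Ddx60 (adjusted p = 0.0435, over its alternatives 0.0435 to 0.469). The deviations of same-numbered arrays from their group means correlated at 0.501, -0.148 and 0.606 for numbers 1 to 3. RUNX2/MYC replicate 2 correlated best with WT replicate 3 (0.209). The study's methods mention littermate-matched controls, but the labels name no litter or batch. Whether same-numbered arrays share one cannot be told from these correlations and was not tested.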
